A study of Drosophila melanogaster with 12 samples.

Results

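The UDP-glycosyltransferase (UGT) family of *Drosophila melanogaster* was followed as every gene whose FlyBase symbol begins with Ugt and a number. The rule found 35 genes among the 17185 gene IDs of the count files, and all 35 were matched by ID in all 12 libraries. They carry 13 different numbers, and each number stands for a group of related enzymes. Group 37 has 8 members, group 35 has 6, groups 36 and 303 have 4 each, groups 49 and 302 have 3 each, and groups 50, 301, 304, 305, 307, 316 and 317 have 1 each. The rule reads gene symbols only, although the family itself was taken up with earlier results of these data known.

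UGTs attach a sugar from a UDP-sugar, in insects mostly UDP-glucose, to small lipophilic molecules, which makes these more soluble and easier to excrete. The enzymes sit in the membrane of the endoplasmic reticulum and face its lumen. In insects they are known for the conjugation step of detoxification of plant compounds and insecticides, and also for glycosylation of pigments, hormones and odorants. They are known from the midgut, the Malpighian tubules, the fat body and the sensory organs.

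RNA-seq of whole larvae was made for 4 genotypes with 3 libraries each, all in a w[1118] background. The genes code for cytosolic glycerol-3-phosphate dehydrogenase (*Gpdh1*) and for lactate dehydrogenase (*Ldh*), which turn cytosolic NADH back into NAD+. *Gpdh1* mutants (Gpdh1[12]/[14]) have *Gpdh1* heterozygotes (Gpdh1[12]/+) as controls, and *Gpdh1; Ldh* double mutants (Gpdh1[12]/[14]; Ldh[16]/[17]) have double heterozygotes (Gpdh1[12]/+; Ldh[16]/+) as controls. *Ldh* single mutants were not analysed here. The labels describe mid-L3 larvae kept 60 h at 25 °C, whereas the study's text places them in an earlier instar, names other *Gpdh1* alleles and says that several larvae went into each sample. All 4 groups carry a *Gpdh1* mutant allele, and both groups of the double genotype also carry an *Ldh* mutant allele, so no group was free of mutations. The study calls its replicates biological, whereas the labels do not say whether they came from separate cultures, and p-values measure only the spread between these samples, part of which may be technical. Each mutant differs from its control by whole mutant chromosomes, so sequence linked to the alleles and the loss of the enzymes cannot be told apart.

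Gene counts ran from 22339930 to 26605495 per library. Each targeted gene was lower in the mutants labelled for it than in their controls, and *Ldh* was also lower in *Gpdh1* mutants. *Gpdh1* stood at 412 to 520.3 CPM (counts scaled to the library total) in *Gpdh1* heterozygotes and 232 to 288 in *Gpdh1* mutants (log2 fold change -0.85), but at 445 to 506 in double heterozygotes and 60.8 to 61.9 in double mutants (-2.98). Although both mutants carry the same labelled *Gpdh1* alleles, the mRNA fell far more in double mutants (difference between the contrasts -2.13, adjusted p = 1.9e-05), which applies to every comparison between the contrasts below. *Ldh* stood at 439 to 457 CPM in double heterozygotes and 3.6 to 4.24 in double mutants, and at 495 to 521 in *Gpdh1* heterozygotes and 379 to 414 in *Gpdh1* mutants. Double heterozygotes spread most among their replicates (coefficient of biological variation 0.208), with replicate 2 apart from the other two, and double mutants spread least (0.0373). Some markers of organs moved with the genotypes. For comparison, 17.9% of all genes tested were higher and 20.2% lower in *Gpdh1* mutants. In double mutants these shares were 25.3% and 25.9%, and some of the marker counts below are near them. All 9 midgut markers (among them *Npc1b*, *thetaTry*, *alphaTry* and *Myo31DF*) were higher in both mutants, with a median log2 fold change of 0.97 in *Gpdh1* mutants and 1.79 in double mutants. The summed midgut marker level went from 326 to 470.2 CPM in *Gpdh1* heterozygotes to 718 to 809 in the mutants, and from 492 to 563 in double heterozygotes to 1719 to 1800.3 in the double mutants, and none of these markers was at 0. Of 8 Malpighian tubule markers, 2 were higher and 1 lower in *Gpdh1* mutants, and 5 were higher in double mutants (*SecCl*, *Oatp58Dc*, *Irk2* and *Lkr* among them). Their summed level went from 455 to 536 CPM to 346 to 359.6 with loss of *Gpdh1* alone, although their median log2 fold change there was 0.25. It went from 345 to 409 to 489 to 498 in the double genotype (median log2 fold change 0.66), with none of these markers at 0. Of 6 fat body markers tested, 2 were higher and 4 lower in *Gpdh1* mutants, and 1 was higher and 4 lower in double mutants. *Fbp1* was higher in both, and *Lsp1beta*, *Lsp1gamma* and *apolpp* were lower in both. Muscle markers (*Mhc*, *TpnC73F*, *sls*, *Act57B* and 4 more) were lower for 8 of 8 and 7 of 8. Cuticle genes of the epidermis (*Lcp3*, *Lcp2*, *TwdlE*, *Cpr49Ae* and 4 more) were lower for 8 of 8 in *Gpdh1* mutants, with 1 higher and 1 lower in double mutants. Of 7 olfactory markers, 3 could be tested (*Obp28a*, *Orco* and *Obp56d*), with 1 lower in *Gpdh1* mutants and 2 higher in double mutants. The part of these marker changes in the UGT results below was not tested, and in whole-larva RNA fewer cells of a type and less RNA per cell cannot be told apart. The study reports a developmental arrest of double mutants, and all groups carry the same age label. Whether the groups were at the same developmental stage was not tested.

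The 35 genes lie on 4 chromosome arms in the BDGP6.54 annotation, 11 on 2L, 5 on 2R, 2 on 3L and 17 on 3R, and all are annotated as protein coding. Neighbours within 50 kb of each other formed 6 clusters that hold 23 members. The largest cluster, 10 genes over 51.3 kb at 3R:11126597-11177910, runs in the order *Ugt35C1*, *Ugt302K1*, *Ugt302E1*, *Ugt302C1*, *Ugt35E1*, *Ugt35E2*, *Ugt35B1*, *Ugt35A1*, *Ugt304A1* and *Ugt303A1*. Another 2 clusters on 3R hold *Ugt37A2* and *Ugt37A3* (3R:12739642-12743680) and *Ugt303B3*, *Ugt303B1* and *Ugt303B2* (3R:23532945-23538908). On 2L lie *Ugt37C2*, *Ugt37E1* and *Ugt37D1* (2L:16794211-16801584) and *Ugt36F1*, *Ugt36D1* and *Ugt36E1* (2L:18819344-18829059), and on 2R lie *Ugt49B1* and *Ugt49C1* (2R:21212880-21217779). Neighbours in such clusters are related copies, so reads from shared stretches may have been lost or split between them. Exons of *Ugt36A1* overlap those of *CG15418* on the other strand by 400 bases, those of *Ugt49B1* overlap *CG44245* by 90, *Ugt37A1* a pogo element by 59, *Ugt36E1* overlaps *CG17597* by 48 and *Ugt307A1* overlaps *Pvf2* by 11. The strand setting of the counting is not given in the sources used here, so how reads from these overlaps were counted is not known.

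Per kilobase of exon, *Ugt49B1* had the highest level of the family in all 4 groups, at 70.6 ± 2.98 CPM per kb (SD, n = 3) in *Gpdh1* heterozygotes and 123 ± 1.59 in their mutants, and at 75.3 ± 10.3 in double heterozygotes and 155 ± 5.36 in theirs, and its libraries stood apart from those of the next gene in each group. The order below it differed between controls and mutants. In *Gpdh1* heterozygotes *Ugt37D1* (35 CPM per kb), *Ugt37C1* (30.2) and *Ugt35A1* (27.9) followed, and the ranges of neighbours in that order overlapped. In *Gpdh1* mutants *Ugt37A2* (56.2), *Ugt49C1* (50.4), *Ugt37D1* (48.4) and *Ugt36D1* (45.3) followed with overlapping ranges, and in double mutants *Ugt37A2* (59.5), *Ugt35A1* (53.8), *Ugt37D1* (50.6) and *Ugt302C1* (43.6) followed, with the first 3 apart from their neighbours. *Ugt37A2* was at 4.84 CPM per kb in *Gpdh1* heterozygotes and 7.73 in double heterozygotes. At the other end, *Ugt37E1*, *Ugt36F1*, *Ugt37A1* and *Ugt35D1* were left out by the filter on low counts, with 0 to 7, 0 to 10, 0 to 3 and 0 to 2 reads per library. *Ugt37E1* had 0 reads in all 3 libraries of *Gpdh1* heterozygotes and 1, 4 and 3 in *Gpdh1* mutants, and 2, 1 and 5 in double heterozygotes and 7, 3 and 5 in double mutants. Without the filter the lowest adjusted p of these 4 genes over all comparisons was 0.0536. In DESeq2 *Ugt36F1* was lower in double than in *Gpdh1* heterozygotes (log2 difference -2.43, adjusted p = 0.0389), with 0, 1 and 4 reads against 10, 6 and 8.

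The family as a whole was more abundant in both mutants. The summed level of the 35 genes was 628, 640.3 and 641 CPM in *Gpdh1* heterozygotes and 1102, 1047 and 1045 CPM in *Gpdh1* mutants. It was 686, 702 and 643 CPM in double heterozygotes and 1168, 1165 and 1195 CPM in double mutants. The mutants stood above their own controls without overlap, by 1.67-fold in *Gpdh1* mutants and 1.74-fold in double mutants. Each had p = 0.1 in a two-sided exact permutation test, the smallest p that 3 against 3 libraries allow. Double heterozygotes also stood above *Gpdh1* heterozygotes without overlap (1.06-fold), and double mutants above *Gpdh1* mutants (1.1-fold), with the same p of 0.1 in that test. Few genes carried most of the added level. In *Gpdh1* mutants *Ugt49B1* added 91.6 CPM, *Ugt37A2* 87.8, *Ugt49C1* 77, *Ugt36D1* 61.5 and *Ugt302C1* 35.5, together 82.6% of the net change of 428 CPM. In double mutants *Ugt49B1* added 141 CPM, *Ugt37A2* 88.6, *Ugt36D1* 71.2, *Ugt35A1* 49.3 and *Ugt49C1* 46.8, together 79.4% of 499 CPM. *Ugt37C1* dropped by 21.3 CPM in *Gpdh1* mutants and dropped by 53.2 CPM in double mutants. The summed midgut marker level was also higher in both mutants, with all 9 markers higher, and its part in the summed UGT level was not tested.

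**Figure D1:**
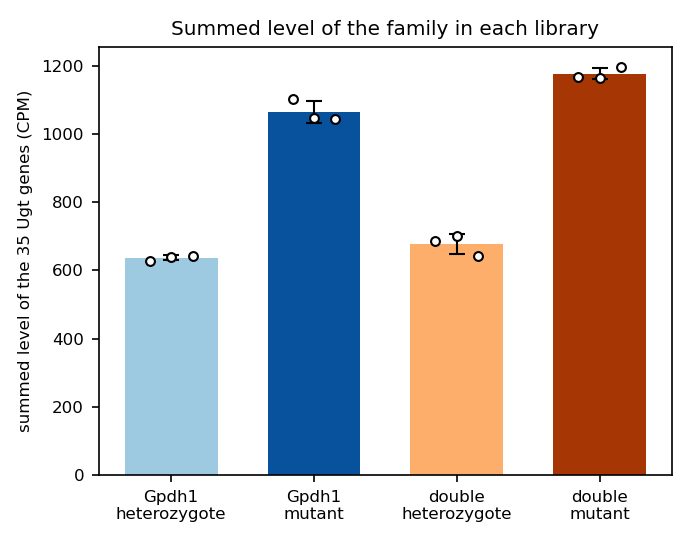
Summed level of the 35 Ugt genes in CPM (y axis), by genotype (x axis). Bars are means of 3 libraries, whiskers 1 SD and circles single libraries; the *Gpdh1* mutants (1045 to 1102 CPM) and double mutants (1165 to 1195 CPM) sit above all control libraries (628 to 702 CPM).

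Gene by gene, more members were higher than lower in each mutant. In *Gpdh1* mutants 30 members had enough reads, and 18 were higher, 4 lower and 8 did not pass at an adjusted p under 0.05, with a median log2 fold change of 0.75. Over all 10592 genes tested, 17.9% were higher and 20.2% lower, with a median of 0.01. In double mutants 31 members had enough reads, and 21 were higher, 5 lower and 5 did not pass, with a median of 1.04. Over all 10650 genes tested there, 25.3% were higher and 25.9% lower, with a median of -0.03. With a log2 fold change beyond 1 also asked for, 12 members were higher and 0 lower in *Gpdh1* mutants, where 3.75% and 4.44% of all genes passed, and 16 were higher and 3 lower in double mutants, where 6.86% and 3.57% passed. These contrasts share no library. Of the 30 members tested in both, 16 (53.3%) were higher in both, against 10.3% of the 10448 genes tested in both. *Ugt37C1* and *Ugt35B1* were lower in both, where 11% of those genes were, and *Ugt36E1* was lower in *Gpdh1* mutants and higher in double mutants. With libraries left out in turn, the *Gpdh1* mutant call of *Ugt37C1* was lost for 4 of 6 and that of *Ugt35B1* for 6 of 6. The double mutant call of *Ugt36E1* was lost for 5 of 6. Every mutant library exceeded every control library for 20 members in *Gpdh1* mutants and 22 in double mutants (26.1% and 30.7% of all genes), and the reverse held for 4 and 6 (27.6% and 31.4%). Leaving out 1 library gave 13 to 18 members higher and 2 to 3 lower in *Gpdh1* mutants, and 20 to 21 higher and 3 to 7 lower in double mutants. With any of the 6 libraries left out, 15 of the 22 calls in *Gpdh1* mutants and 23 of the 26 in double mutants stayed. Double mutant replicates 1 and 2 were close to each other (chi-square per degree of freedom 2.42), so leaving out either is a weak check of the double mutant calls.

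**Figure D2:**
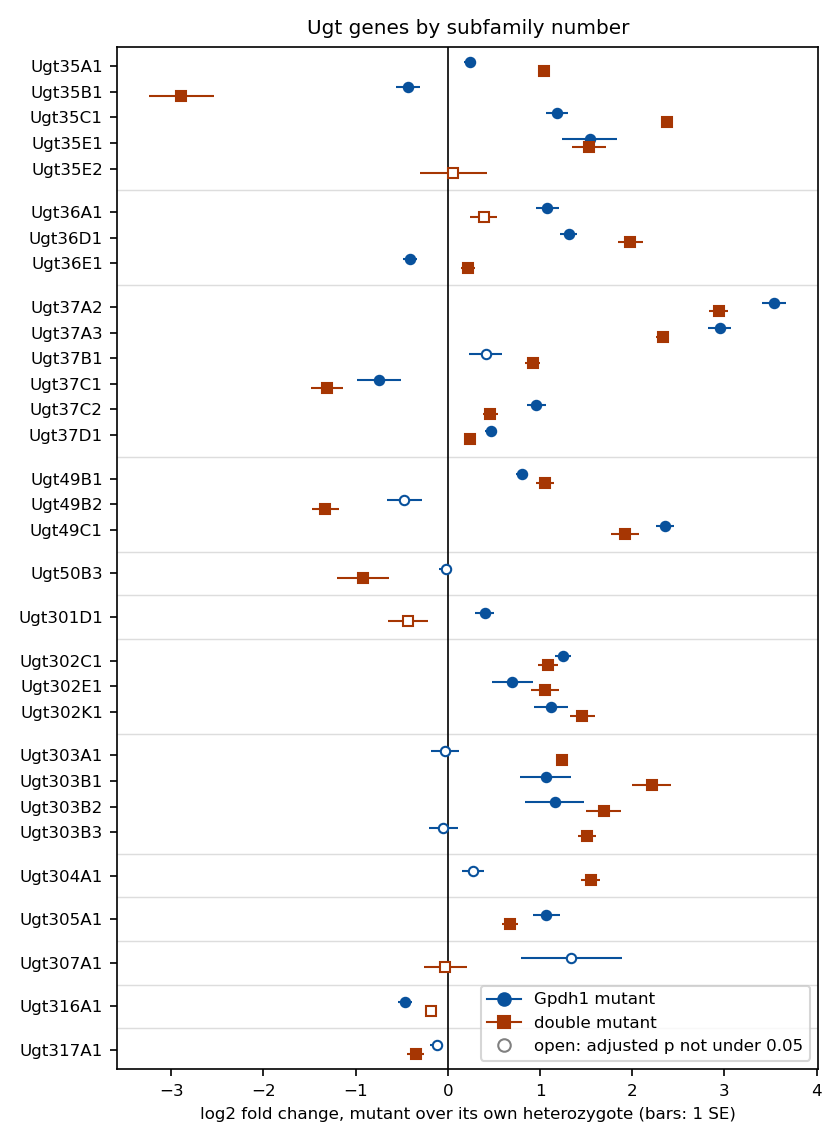
Log2 fold change of each mutant over its own heterozygous control (x axis, bars 1 SE) for the 31 Ugt genes tested in double mutants (y axis), grouped by the number in their symbol. Circles are *Gpdh1* mutants and squares double mutants, open where the adjusted p was not under 0.05; *Ugt37A2* lies farthest right (3.54 and 2.94) and *Ugt35B1* farthest left (-2.89 in double mutants).

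In group 37, *Ugt37A2* had the highest fold change of the tested members in both mutants. Its neighbour on the opposite strand of 3R, *Ugt37A3*, came next in *Gpdh1* mutants, and in double mutants *Ugt35C1* lay between them. *Ugt37A2* stood at 10, 7.45 and 7.33 CPM in *Gpdh1* heterozygotes and at 105, 89.5 and 94 in *Gpdh1* mutants, an 11.6-fold rise (log2 fold change 3.54, SE 0.133, adjusted p = 5.5e-05). In double heterozygotes it stood at 12.9, 11.7 and 15.1 CPM and in double mutants at 101, 100 and 104, a 7.69-fold rise (log2 fold change 2.94, SE 0.102, adjusted p = 7.2e-06). All mutant libraries lay well above all control libraries, and the mutant levels of both genotypes overlapped. *Ugt37A3* had 5.44, 5.24 and 4.76 CPM in *Gpdh1* heterozygotes and 46.3, 37.5 and 35.3 in *Gpdh1* mutants, 7.73-fold more (adjusted p = 8.2e-05). It had 5.1, 5.55 and 5.67 CPM in double heterozygotes and 26.5, 27.2 and 28.6 in double mutants, 5.04-fold more (adjusted p = 3.7e-06). Here the mutants differed from each other too, with every double mutant library below every *Gpdh1* mutant library.

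The other members of group 37 moved less or the other way. *Ugt37C2* rose 1.94-fold in *Gpdh1* mutants (5.38 ± 0.611 to 10.4 ± 0.591 CPM, SD, n = 3) and 1.38-fold in double mutants (11.6 ± 1.01 to 16.1 ± 0.895). Its neighbour *Ugt37D1* rose 1.38-fold (68.5 ± 4.45 to 94.6 ± 4.32 CPM) and 1.18-fold (83.5 ± 4.98 to 98.9 ± 1.46). *Ugt37B1* passed in double mutants alone, where 11.7, 11.6 and 9.71 CPM became 20.5, 21.4 and 20.6 (1.89-fold, adjusted p = 0.000221). In *Gpdh1* mutants its groups overlapped (log2 fold change 0.41, adjusted p = 0.119). The test of the difference between contrasts did not pass either (0.51, adjusted p = 0.103), except without *Gpdh1* mutant replicate 2 (0.74, adjusted p = 0.0165). *Ugt37C1* fell. It stood at 93.2, 109 and 65.6 CPM in double heterozygotes and at 35.7, 37.1 and 35.5 in double mutants, 2.48-fold lower (log2 fold change -1.31, SE 0.174, adjusted p = 0.0012). In *Gpdh1* heterozygotes it stood at 36.1, 58.8 and 62.9 CPM and in *Gpdh1* mutants at 39.9, 27.7 and 26.3, ranges that overlapped (log2 fold change -0.75, adjusted p = 0.0443). That call was lost when *Gpdh1* heterozygote replicate 2 or 3 or *Gpdh1* mutant replicate 2 or 3 was left out (adjusted p 0.112 to 0.143). Control libraries of this gene spread more than those of any other group 37 member in CPM.

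Group 49 holds the member with the most reads and a neighbour that rose more. *Ugt49B1* had 122, 120.0 and 129.8 CPM in *Gpdh1* heterozygotes and 218, 213 and 216 in *Gpdh1* mutants, 1.74-fold more (adjusted p = 0.000268). It had 123, 153 and 121 CPM in double heterozygotes and 268, 266 and 283 in double mutants, 2.06-fold more (adjusted p = 0.000285). No mutant library overlapped a control library. *Ugt49C1*, next to it, had 19.9, 16.3 and 19.9 CPM in *Gpdh1* heterozygotes and 103, 89.7 and 94.4 in *Gpdh1* mutants, 5.12-fold more (log2 fold change 2.36, SE 0.0987, adjusted p = 8.2e-05). It had 14.3, 21.3 and 14.7 CPM in double heterozygotes and 64.2, 64 and 62.6 in double mutants, 3.78-fold more (log2 fold change 1.92, SE 0.154, adjusted p = 0.000152). *Ugt49B2*, which lies alone on 3R, went down. It fell from 8.38, 10.3 and 7.22 CPM in double heterozygotes to 3.63, 3.6 and 3.12 in double mutants (2.51-fold, adjusted p = 0.000591). Its 4.72, 5.29 and 4.59 CPM in *Gpdh1* heterozygotes against 2.63, 3.46 and 4.41 in *Gpdh1* mutants did not pass (log2 fold change -0.47, adjusted p = 0.0838), except without *Gpdh1* mutant replicate 3 (-0.66, adjusted p = 0.0313).

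**Figure D3:**
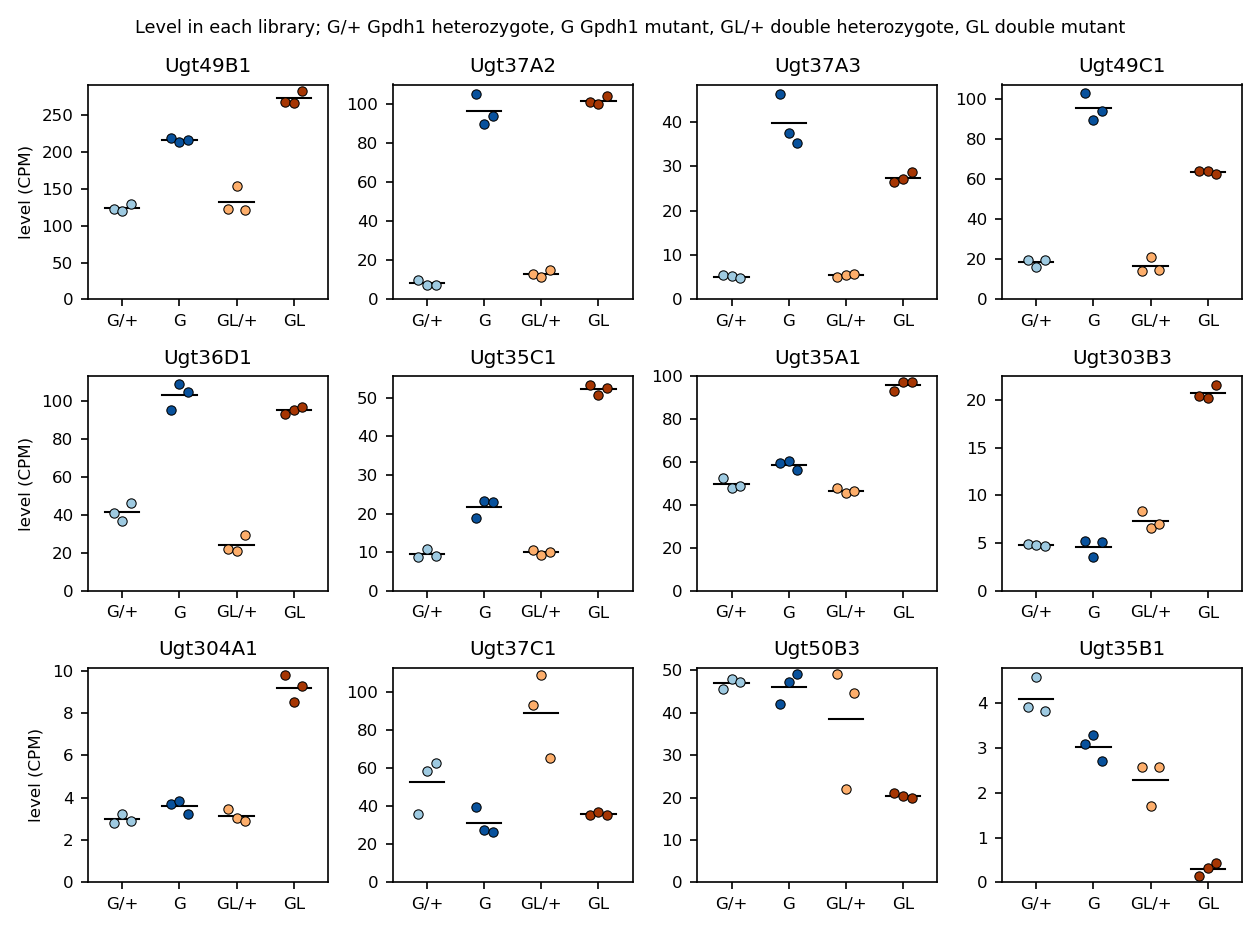
Level in CPM (y axis, linear from 0, own scale in each panel) of 12 Ugt genes in each of the 12 libraries, with horizontal lines at the group means. The 4 columns of each panel are the *Gpdh1* controls and mutants (G/+ and G), then the double controls and mutants (GL/+ and GL); *Ugt37A2* shows both mutants high (89.5 to 105 CPM), *Ugt303B3* the double mutants alone (20.2 to 21.6 CPM), and *Ugt35B1* the double mutants near 0 (0.144 to 0.441 CPM).

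Group 36 was mixed. *Ugt36D1* stood at 41.3, 37 and 46.3 CPM in *Gpdh1* heterozygotes and at 95.5, 109 and 105 in *Gpdh1* mutants, 2.49-fold higher (adjusted p = 0.00028). It stood at 21.9, 20.8 and 29.4 CPM in double heterozygotes and at 93.2, 95.4 and 97.1 in double mutants, 3.96-fold higher (adjusted p = 8.1e-05). The mutants overlapped each other, and the controls did not. *Ugt36E1*, its neighbour, is known from olfactory neurons of adult flies, where it takes part in the discrimination of sex pheromones. It was lower in *Gpdh1* mutants (12.8 ± 0.455 to 9.62 ± 0.591 CPM, SD, n = 3; log2 fold change -0.41, adjusted p = 0.00604). In double mutants it was slightly higher (11.3 ± 0.657 to 13.2 ± 0.733 CPM; log2 fold change 0.22, adjusted p = 0.043), a call lost when any library but double heterozygote replicate 1 was left out (adjusted p 0.0592 to 0.138) and in DESeq2 (0.123). *Ugt36A1*, also named *Dot* and known from the embryonic lymph gland and the pericardial cells, rose 2.11-fold in *Gpdh1* mutants, from 8.76, 7.75 and 9.74 CPM to 21.2, 16.3 and 18 (adjusted p = 0.00118). In double mutants its 17.6, 17.9 and 17.8 CPM lay above the 14.4, 16 and 10.3 CPM of the controls, but the log2 fold change of 0.39 did not pass (adjusted p = 0.0688). It passed without double heterozygote replicate 2 (0.54, adjusted p = 0.00702) or replicate 3 (0.23, adjusted p = 0.0482) and in DESeq2 (0.40, adjusted p = 0.0352). How reads from its overlap with *CG15418* were counted is not known.

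Group 35 contained the member with the lowest fold change among those tested in double mutants, beside members that rose. *Ugt35C1*, also named *Ugt86Dd* and known for its part in the resistance of flies to nicotine, had 8.81, 10.9 and 9.14 CPM in *Gpdh1* heterozygotes and 18.9, 23.2 and 23 in *Gpdh1* mutants, 2.26-fold more (log2 fold change 1.18, SE 0.119, adjusted p = 0.000764). It had 10.7, 9.39 and 10 CPM in double heterozygotes and 53.4, 50.8 and 52.5 in double mutants, 5.2-fold more (log2 fold change 2.38, SE 0.0639, adjusted p = 3.5e-06). The control groups overlapped, and the levels in the 2 mutants lay apart. *Ugt35A1* had 52.6, 47.7 and 48.9 CPM in *Gpdh1* heterozygotes and 59.6, 60.4 and 56.5 in *Gpdh1* mutants, 1.19-fold more (adjusted p = 0.0172, lost without *Gpdh1* mutant replicate 1 or 2, adjusted p 0.0531 and 0.0521). In double mutants it rose from 47.9, 45.6 and 46.4 CPM to 93.1, 97.5 and 97.1, 2.06-fold (adjusted p = 1.6e-05). *Ugt35E1* rose in both, 2.92-fold (0.83 ± 0.387 to 2.45 ± 0.332 CPM, SD, n = 3) and 2.89-fold (2.13 ± 0.576 to 6.17 ± 0.443). *Ugt35E2* had 2 to 14 reads per library and did not pass in double mutants (log2 fold change 0.06, adjusted p = 0.905).

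*Ugt35B1*, also named *Ugt35b* and known from the antenna of adult flies, nearly disappeared from the double mutants. It stood at 3.91, 4.58 and 3.82 CPM in *Gpdh1* heterozygotes and at 3.09, 3.3 and 2.72 in the mutants without *Gpdh1* alone. In double heterozygotes it stood at 2.57, 1.71 and 2.58 CPM, and in double mutants at 0.144, 0.318 and 0.441. The last 3 values are 4, 9 and 13 reads, against 62, 45 and 60 in the double heterozygotes. The double mutants were 7.42-fold lower than their controls (log2 fold change -2.89, SE 0.349, adjusted p = 0.000806), with no overlap. For *Gpdh1* mutants the fit gave -0.43 on the log2 scale (adjusted p = 0.0351), a call lost when any of the 6 libraries was left out (adjusted p 0.0502 to 0.109), in a fit of all 12 libraries (0.11) and in DESeq2 (0.114). *Ugt35B1* lies between *Ugt35E2* and *Ugt35A1* on the same strand, and *Ugt35A1* rose 2.06-fold in the same libraries.

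All 3 members of group 302, which lie side by side in the large cluster, were higher in both mutants. *Ugt302C1* had 26.3, 24.8 and 26.8 CPM in *Gpdh1* heterozygotes and 68.5, 58.7 and 57.2 in *Gpdh1* mutants, 2.37-fold more (adjusted p = 0.000241). It had 37.2, 48.2 and 36.9 CPM in double heterozygotes and 88.9, 84.3 and 87.6 in double mutants, 2.13-fold more (adjusted p = 0.000356). *Ugt302K1* rose 2.17-fold (1.4 ± 0.0993 to 3.05 ± 0.612 CPM, SD, n = 3) and 2.74-fold (1.04 ± 0.134 to 2.87 ± 0.0763). *Ugt302E1* rose 2.06-fold in double mutants (1.46 ± 0.267 to 3.03 ± 0.103 CPM, adjusted p = 0.00176). Its 1.63-fold rise in *Gpdh1* mutants (0.875 ± 0.0732 to 1.42 ± 0.315 CPM, adjusted p = 0.043) was lost when any library but *Gpdh1* mutant replicate 3 was left out (adjusted p 0.0747 to 0.122) and in DESeq2 (0.14).

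The 4 members of group 303 were all higher in double mutants, and *Ugt303B1* and *Ugt303B2* also in *Gpdh1* mutants. *Ugt303B3* stood at 4.94, 4.83 and 4.68 CPM in *Gpdh1* heterozygotes and at 5.25, 3.54 and 5.14 in *Gpdh1* mutants, which overlapped (log2 fold change -0.05, SE 0.159, adjusted p = 0.828). It stood at 8.34, 6.54 and 7 CPM in double heterozygotes and at 20.4, 20.2 and 21.6 in double mutants, 2.84-fold higher (log2 fold change 1.51, SE 0.0983, adjusted p = 6.8e-05). *Ugt303A1* showed the same split. Its 9.7, 10.3 and 7.25 CPM in *Gpdh1* heterozygotes overlapped the 9.57, 9.15 and 7.87 in *Gpdh1* mutants (log2 fold change -0.03, adjusted p = 0.891), and its 10, 9.17 and 8.89 CPM in double heterozygotes became 21.6, 22.9 and 22 in double mutants (2.36-fold, adjusted p = 2.8e-05). *Ugt303B1* rose 4.62-fold in double mutants (0.88 ± 0.303 to 4.09 ± 0.262 CPM, SD, n = 3) and *Ugt303B2* 3.23-fold (0.381 ± 0.0489 to 1.24 ± 0.126). In *Gpdh1* mutants these rose 2.09-fold (adjusted p = 0.0217) and 2.23-fold (adjusted p = 0.0272). Both calls were lost without control replicate 3, mutant replicate 1 or mutant replicate 2, and that of *Ugt303B1* also without control replicate 2 (adjusted p 0.0554 to 0.0699 for *Ugt303B1* and 0.0591 to 0.0811 for *Ugt303B2*). DESeq2 gave 0.0682 for *Ugt303B2*.

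Among the 7 groups with a single member, *Ugt305A1* rose in both mutants, *Ugt301D1* in *Gpdh1* mutants alone and *Ugt304A1* in double mutants alone, and the other 4 fell or did not pass. *Ugt304A1* had 2.83, 3.22 and 2.92 CPM in *Gpdh1* heterozygotes and 3.69, 3.87 and 3.24 in *Gpdh1* mutants, a log2 fold change of 0.27 that did not pass (adjusted p = 0.113). It had 3.48, 3.04 and 2.92 CPM in double heterozygotes and 9.81, 8.54 and 9.27 in double mutants, 2.92-fold more (adjusted p = 6.8e-05). *Ugt305A1* rose 2.1-fold in *Gpdh1* mutants (5.41 ± 1.14 to 11.4 ± 0.683 CPM, SD, n = 3) and 1.59-fold in double mutants (10.3 ± 0.924 to 16.4 ± 1.13). *Ugt301D1* rose 1.32-fold in *Gpdh1* mutants (26.2 ± 3.15 to 34.4 ± 2.49 CPM, adjusted p = 0.019), which was lost without replicate 2 or 3 of the heterozygotes or replicate 1 or 2 of the mutants (adjusted p 0.0534 to 0.0559) and in a fit of all 12 libraries (0.105). In double mutants its log2 fold change of -0.43 did not pass (20.3 ± 6.16 to 15.1 ± 0.696 CPM, adjusted p = 0.146). Without double heterozygote replicate 2, the lowest control at 13.6 CPM, it was lower (-0.63, adjusted p = 0.000542). *Ugt316A1* was 1.38-fold lower in *Gpdh1* mutants (50.4 ± 4.95 to 36.5 ± 0.513 CPM, adjusted p = 0.00394). In double mutants its log2 fold change of -0.18 (35.2 ± 2.7 to 31 ± 0.347 CPM) did not pass (adjusted p = 0.0607), except without double heterozygote replicate 2 (-0.22, adjusted p = 0.00416).

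*Ugt50B3* and *Ugt317A1* were lower in double mutants. *Ugt50B3* stood at 45.6, 47.9 and 47.2 CPM in *Gpdh1* heterozygotes and at 42, 47.3 and 49.2 in *Gpdh1* mutants, which overlapped (log2 fold change -0.02, adjusted p = 0.839). In double heterozygotes replicate 2 was at 22.1 CPM, close to the 21.1, 20.4 and 19.8 of the double mutants, whereas replicates 1 and 3 were at 49.1 and 44.6. The log2 fold change of -0.92 (adjusted p = 0.033) lost its call when any library but double heterozygote replicate 2 was left out (-0.94 to -0.70, adjusted p 0.084 to 0.1). *Ugt317A1* was 1.28-fold lower in double mutants (25.3 ± 2.77 to 19.8 ± 1.23 CPM, SD, n = 3; adjusted p = 0.0212), which was lost without double heterozygote replicate 1 or double mutant replicate 1 or 2 (adjusted p 0.0536 to 0.0783). In *Gpdh1* mutants it did not pass (log2 fold change -0.12, adjusted p = 0.227). *Ugt307A1* had low levels everywhere, 0.0858 to 1.21 CPM, and passed in neither contrast (log2 fold changes 1.34 and -0.03, adjusted p 0.0944 and 0.93), although a fit of all 12 libraries gave 0.0428 for *Gpdh1* mutants.

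By position, members in clusters and members outside them differed in their counts. In *Gpdh1* mutants 15 of 20 tested members in clusters were higher and 2 lower (median log2 fold change 1.01), and outside clusters 3 of 10 were higher and 2 lower (median 0.19). In double mutants 19 of 21 in clusters were higher and 1 lower (median 1.46), and outside clusters 2 of 10 were higher and 4 lower (median -0.27). Among all genes tested, 17.9% were higher and 20.2% lower in *Gpdh1* mutants, and 25.3% and 25.9% in double mutants. These counts are a description, and genes of a cluster are not independent of each other. In *Gpdh1* mutants 10 of 15 tested members on 3R were higher and 1 lower, 5 of 8 on 2L were higher and 1 lower, 2 of 5 on 2R were higher and 1 lower, and of 2 on 3L 1 was higher and 1 lower. In double mutants 13 of 16 on 3R were higher and 2 lower, 5 of 8 on 2L were higher and 0 lower, 2 of 5 on 2R were higher and 3 lower, and of 2 on 3L 1 was higher and 0 lower. In the large cluster, *Ugt35C1*, *Ugt302K1*, *Ugt302E1*, *Ugt302C1* and *Ugt35E1*, at one end, were higher in both mutants. Next to them *Ugt35E2* did not pass in double mutants and was below the filter in *Gpdh1* mutants, and *Ugt35B1* was lower in both mutants. *Ugt35A1*, beyond it, was again higher in both (0.24 and 1.04 on the log2 scale), and *Ugt304A1* and *Ugt303A1*, at the other end, passed in double mutants alone.

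**Figure D4:**
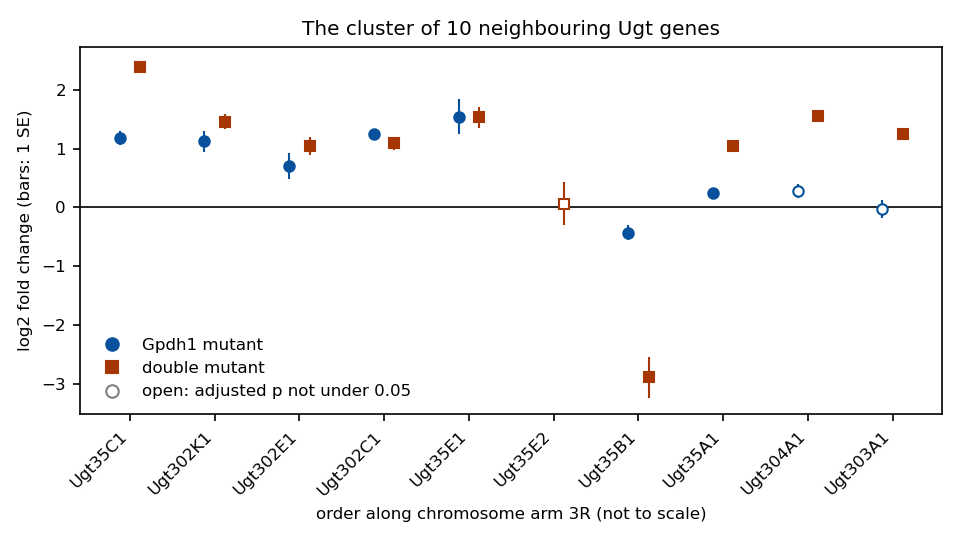
Log2 fold change (y axis, bars 1 SE) of the 10 neighbouring Ugt genes of the large cluster on 3R, in chromosomal order (x axis, not to scale), in *Gpdh1* mutants (circles) and double mutants (squares), open where the adjusted p was not under 0.05. Double mutants are above 1 for 8 of the 10 genes and at -2.89 for *Ugt35B1*; *Ugt35E2* was not tested in *Gpdh1* mutants.

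The fold changes of both contrasts were compared as their difference over all 12 libraries. Double mutants also lack *Ldh* and hold less *Gpdh1* mRNA than *Gpdh1* mutants (above), and *Ldh* single mutants were not analysed here, so the difference cannot tell the effect of *Ldh* loss alone from a changed response to loss of *Gpdh1*. Of 31 members tested, 8 differed upwards (a greater log2 fold change in double mutants) and 7 downwards, where 12.0% and 13.5% of all 10880 genes did. The difference was 1.56 for *Ugt303B3* (SE 0.192, adjusted p = 0.00035), 1.28 for *Ugt303A1* (SE 0.169, adjusted p = 0.000538), 1.28 for *Ugt304A1* (SE 0.149, adjusted p = 0.000283), 1.20 for *Ugt35C1* (SE 0.137, adjusted p = 0.000249) and 0.80 for *Ugt35A1* (SE 0.071, adjusted p = 8.5e-05). It was -2.46 for *Ugt35B1* (SE 0.357, adjusted p = 0.000906). These 6 calls held without any single library. *Ugt36D1* (0.68), *Ugt36E1* (0.64) and *Ugt37A3* (-0.61) also passed without any single library, but *Ugt36D1* (adjusted p = 0.103) and *Ugt37A3* (0.0849) lost their calls when the double mutants, whose replicates 1 and 2 were close to each other, were summed into 1 library. *Ugt303B1* (1.15), *Ugt37C2* (-0.49), *Ugt37A2* (-0.59), *Ugt36A1* (-0.69), *Ugt301D1* (-0.82) and *Ugt49B2* (-0.85) each failed without 5 to 10 of the 12 libraries, with an adjusted p between 0.05 and 0.107, and all 6 failed with the double mutants summed (0.131 to 0.193). Of the members that did not pass, *Ugt50B3* passed without double heterozygote replicate 2 (-1.17, adjusted p = 3.7e-05) and *Ugt49B1* as well (0.36, adjusted p = 0.00443). *Ugt317A1* also passed without that library (-0.31, adjusted p = 0.0444), *Ugt305A1* (-0.56, adjusted p = 0.0297) and *Ugt316A1* (0.33, adjusted p = 0.045) passed without *Gpdh1* heterozygote replicate 1, and *Ugt37D1* (-0.27, adjusted p = 0.0464) without double heterozygote replicate 3.

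A difference between contrasts can lie in the mutants, in the controls or in both, so these were also set against each other. The comparisons share libraries, and their values are given side by side only. Double mutants stood above *Gpdh1* mutants for 14 of 31 members and below for 7, where 18.9% and 20% of all genes did. Double heterozygotes stood above *Gpdh1* heterozygotes for 12 members and below for 4, where 14.1% and 12.3% of all genes did. For *Ugt303A1* the controls gave a log2 difference of 0.05 (adjusted p = 0.818) and the mutants 1.32 (adjusted p = 1.5e-05). *Ugt304A1* gave 0.08 and 1.35, *Ugt35C1* 0.06 and 1.27, and *Ugt35A1* -0.09 and 0.70, each with the controls not passing and the mutants passing. *Ugt303B3* passed in both, with 0.60 between the controls and 2.16 between the mutants, and so did *Ugt35B1*, with -0.84 and -3.30.

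For *Ugt36D1*, *Ugt37A2*, *Ugt49B2* and *Ugt36A1* the controls differed and the mutants did not pass. *Ugt36D1* was lower in double heterozygotes (24.1 ± 4.69 against 41.5 ± 4.69 CPM, SD, n = 3; log2 difference -0.79, adjusted p = 0.00173), and the mutants had 95.3 ± 1.95 and 103 ± 6.77 CPM (-0.11, adjusted p = 0.482). *Ugt37A2* was higher in double heterozygotes (0.67, adjusted p = 0.0043), with 0.08 between the mutants (adjusted p = 0.594). *Ugt49B2* and *Ugt36A1* were likewise higher in double heterozygotes (0.83 and 0.63), with -0.02 and -0.06 between the mutants. The call of *Ugt36A1* between the controls was lost without *Gpdh1* heterozygote replicate 2 (0.55, adjusted p = 0.0532). *Ugt37C2* was higher in double heterozygotes (1.11, adjusted p = 0.000134) and in double mutants (0.62, adjusted p = 0.00038). The midgut markers differed between the controls too, with 6 of 9 higher in double heterozygotes (median log2 difference 0.62). All 9 were higher in double mutants than in *Gpdh1* mutants. Of 8 cuticle genes, 6 were lower and 0 higher in double heterozygotes (median -2.14). Between the mutants, 2 of them were higher and 1 lower in double mutants (median -0.40). The part of the midgut and cuticle differences in these UGT values was not tested.

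**Figure D5:**
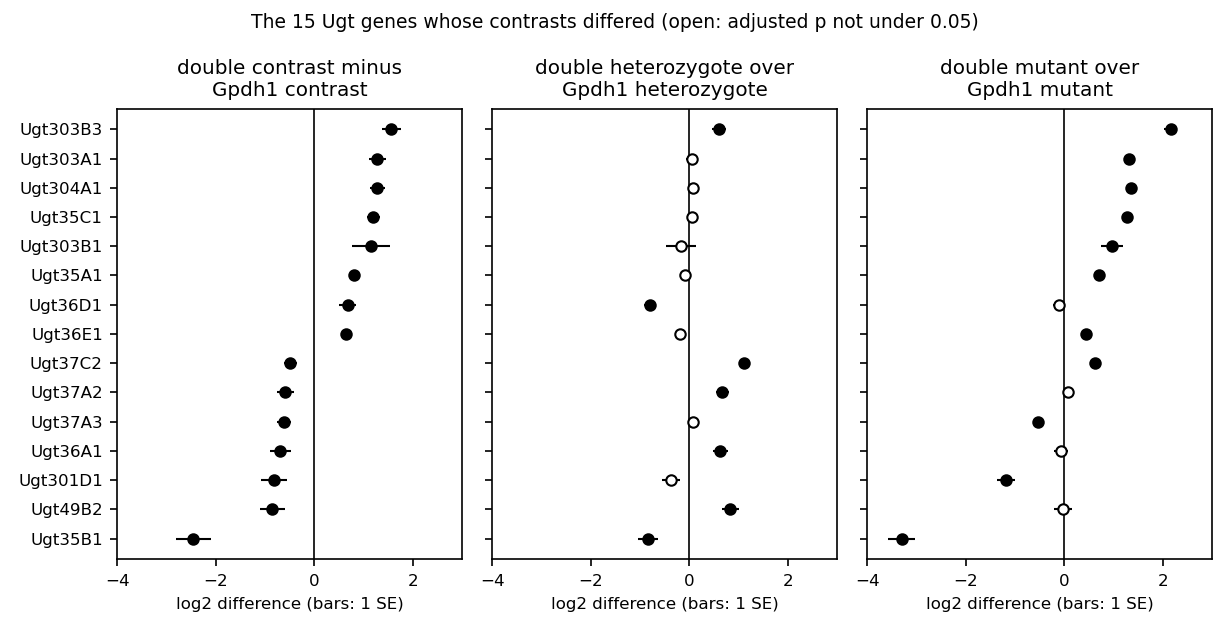
Log2 differences (x axes, bars 1 SE) of the 15 Ugt genes whose contrasts differed (y axis), open where the adjusted p was not under 0.05. From left to right the panels show the difference between the contrasts, double over *Gpdh1* heterozygotes and double over *Gpdh1* mutants; *Ugt304A1* lies at 0.08 between the controls and 1.35 between the mutants, *Ugt36D1* at -0.79 and -0.11.

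Of 13 tested genes that make or carry nucleotide sugars, 2 were higher and 6 lower in *Gpdh1* mutants (median log2 fold change -0.15), and 1 was higher and 6 lower in double mutants (median -0.04). *UGP*, which makes UDP-glucose, was lower in double mutants (log2 fold change -0.27, adjusted p = 0.0066) and did not pass in *Gpdh1* mutants (-0.15, adjusted p = 0.053). *sgl*, which turns UDP-glucose into UDP-glucuronate, was higher in *Gpdh1* mutants (0.67, adjusted p = 0.0012) and did not pass in double mutants (0.24, adjusted p = 0.22). *Gfat2*, at the start of UDP-GlcNAc synthesis, was higher in both (0.51, adjusted p = 0.0017, and 0.27, adjusted p = 0.02). In double mutants *Galt*, which makes UDP-galactose from galactose-1-phosphate, fell by 0.62 on the log2 scale (adjusted p = 8.7e-05). The nucleotide-sugar transporter genes *Ugalt* and *meigo* fell by 0.44 (adjusted p = 0.00123) and by 0.33 (adjusted p = 0.00165), and *nst*, for UDP-GlcNAc synthesis, by 0.60 (adjusted p = 0.000681). Of 6 genes of sulfonation, another conjugation reaction, 0 were higher and 1 lower in *Gpdh1* mutants, and 1 was higher and 2 lower in double mutants (median -0.49). *Papss*, which makes the sulfate donor, fell by 0.66 there (adjusted p = 0.000995), *St2* fell by 1.08 (adjusted p = 0.0341), *St3* was higher by 0.67 (adjusted p = 0.0473), and *St1* did not pass (-0.74, adjusted p = 0.164). Of 9 genes for factors tied to the control of detoxification genes, 3 were higher and 1 lower in *Gpdh1* mutants, and 5 were higher and 2 lower in double mutants (median 0.30). The genes *cnc*, *Hr96* and *Hnf4* were higher in both. In double mutants *Hr96*, a nuclear receptor gene known for the response to xenobiotics, was higher by 0.39 (adjusted p = 0.00505) and *Hnf4* by 0.30 (adjusted p = 0.00725), while *Hr38* stood at -1.54 on the log2 scale (adjusted p = 0.00113) and *tgo* at -0.37 (adjusted p = 0.00168). These shares stand beside 17.9% higher and 20.2% lower among all genes in *Gpdh1* mutants, and 25.3% and 25.9% in double mutants.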

How the data were processed

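Counts deposited by the authors were used: per gene, whole and not normalized, for 17185 gene IDs in each of 12 libraries, after removal of the counter's 5 summary lines. The submitters' processing notes list bcl2fastq 2.20.0.422, cutadapt 1.12, HISAT2 2.1.0 and HTSeq 0.9.0; the strand setting, genome build and annotation are not given in the sources used here, and the study's methods name Salmon, tximport and DESeq2 instead. Reads without a feature made up 0.736% to 1.04%, ambiguous reads 1.97% to 2.17% and reads aligned to more than 1 place 8.06% to 14.7% of each library. Gene totals were 22339930 to 26605495.

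Symbols and coordinates came from the BDGP6.54 annotation, which names 17059 of the IDs. Counts were tested in R 4.3.3 with edgeR 4.0.16 (filterByExpr with a minimum count of 10, TMM scaling, quasi-likelihood F test), with Benjamini-Hochberg adjustment over all genes tested; a gene passed at an adjusted p under 0.05. Every adjusted p in the text is from this test unless DESeq2 (1.42.0) is named. Mutants were fitted with their own controls on 6 libraries, and the other comparisons on all 12. The SE of a log2 fold change is its size over the square root of F. CPM are counts divided by library sizes on 1 TMM scale over the 12 libraries. Summed levels were compared with a two-sided exact permutation test (scipy 1.17.1).

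All members were named; of the 6 marker and 3 companion lists, the 4 genes with the smallest adjusted p in double mutants. A few others were chosen after their values were seen (*cnc*, *UGP*, *sgl* and *Gfat2*). Members and lists were chosen with earlier results of these data known. Double mutant replicates 1 and 2 differed least (chi-square per degree of freedom 2.42, other double mutant pairs 12 and 9.76), still more than sampling noise, and were kept as separate libraries. The edgeR script was tested on simulated data. Alternatives were DESeq2's size factors and test, other count filters, 1 fit of all libraries, a replicate block, the double mutants summed into 1 library, a fold limit, and leaving out each library. Sequences, promoter motifs and protein signatures were not analysed here. Precision covers counting and the spread of 3 libraries only.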

Additional observations from a re-analysis of the deposited data

Results flagged for a closer look

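The 15 UGT genes whose log2 fold changes differed between *Gpdh1* mutants and double mutants, by edgeR's test of the difference itself (adjusted p under 0.05), are the results to look at again. Upwards, with the fold change more positive in double mutants, the difference was 1.56 for *Ugt303B3* (log2 fold changes -0.05 in *Gpdh1* mutants and 1.51 in double mutants), 1.28 for *Ugt303A1* (-0.03 and 1.24), 1.28 for *Ugt304A1* (0.27 and 1.55), 1.20 for *Ugt35C1* (1.18 and 2.38), 1.15 for *Ugt303B1* (1.06 and 2.21), 0.80 for *Ugt35A1* (0.24 and 1.04), 0.68 for *Ugt36D1* (1.31 and 1.98) and 0.64 for *Ugt36E1* (-0.41 and 0.22). Downwards it was -0.49 for *Ugt37C2* (0.96 and 0.46), -0.59 for *Ugt37A2* (3.54 and 2.94), -0.61 for *Ugt37A3* (2.95 and 2.33), -0.69 for *Ugt36A1* (1.08 and 0.39), -0.82 for *Ugt301D1* (0.40 and -0.43), -0.85 for *Ugt49B2* (-0.47 and -1.33) and -2.46 for *Ugt35B1* (-0.43 and -2.89). For *Ugt36D1*, *Ugt37A2*, *Ugt36A1* and *Ugt49B2* the control groups differed from each other and the mutants did not pass.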

How the results depend on the processing

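Of 2389 member values recomputed under the alternatives, 2210 kept their side of the threshold, 153 lost the call, 26 gained it and 0 called values changed sign. Among values without a call, 43 had another sign than in the main fit. With a log2 fold limit of 1, members higher and lower numbered 12 and 0 in *Gpdh1* mutants (3.75% and 4.44% of all genes). In double mutants they numbered 16 and 3 (6.86% and 3.57%). They numbered 5 and 1 for the difference between the contrasts, 2 and 0 between the controls and 7 and 3 between the mutants. For these last comparisons the share of all genes at that limit is not given here, so their counts are a description only. With the double mutants summed into 1 library, whose spread is then assumed to be that of the other groups, 17 members were higher and 2 lower in double mutants (the calls of *Ugt302E1*, *Ugt317A1*, *Ugt36E1*, *Ugt37C1*, *Ugt37C2*, *Ugt37D1* and *Ugt50B3* were lost), 6 had a positive and 1 a negative difference between the contrasts and 4 were lower than in *Gpdh1* mutants. Leaving out 1 library gave 13 to 18 higher and 2 to 3 lower in *Gpdh1* mutants, 20 to 21 and 3 to 7 in double mutants, 7 to 8 and 2 to 8 for the difference, 9 to 13 and 4 to 5 between the controls, 14 to 15 and 6 to 7 between the mutants, and ratios of summed levels of 1.64 to 1.69 and 1.7 to 1.77. Replicate numbers did not pair the samples (correlations of same-numbered deviations -0.218 to -0.098 between *Gpdh1* mutants and their controls, -0.009 to 0.02 between double mutants and theirs, -0.222 to 0.151 between the controls, with 2 of 3 pairs over 0.1, and -0.017 to 0.024 between the mutants). With a replicate block, 17 members were higher and 3 lower in *Gpdh1* mutants, and 20 and 4 in double mutants; the calls of *Ugt302E1* and *Ugt37C1* in the first and of *Ugt36E1* and *Ugt50B3* in the second were lost. Sequence-based checks were not run. The filter on low counts left out *Ugt37E1*, *Ugt36F1*, *Ugt37A1* and *Ugt35D1*, and *Ugt35E2* in *Gpdh1* mutants; without it the lowest adjusted p of their 21 values was 0.0536, and DESeq2 gave an adjusted p for 8 of 21, with 1 call (*Ugt36F1* between the controls, 0.0389).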
